A study of Mus musculus with 22 samples.

Results

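The potassium channel genes described here are all genes whose symbol in the platform annotation starts with Kcn. They comprised 80 of the 16593 gene symbols on the array and were measured by 119 of its 25697 probes. The members were picked by symbol and not by their measured values, but this gene set was chosen with earlier results of these data known. Symbols of all 80 genes were found in the RefSeq gene table.

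Total RNA was taken from C57BL/6J mice that were wild type or mutant in Sgms1, the gene of a sphingomyelin synthase, and hybridised to 22 Illumina bead arrays. For testis, 4 mice of each genotype were used at an age of 27 weeks. Brain and muscle were both taken from 7 other mice, 3 wild type and 4 Sgms1 mutant, at 17 weeks, so that the 22 arrays stand for 15 mice. The series speaks of male mice. The labels name neither the kind of Sgms1 mutation nor which muscle or which part of the brain was taken, and testis cannot be told apart from its age and cohort in any comparison with the other tissues.

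Potassium channels let potassium leave the cell down its gradient and so set the resting potential and end the action potential. Pore-forming subunits fall into voltage-gated families (Kcna, Kcnb, Kcnc, Kcnd, Kcnq, Kcnh and the silent modifiers Kcnf, Kcng, Kcns and Kcnv), inward rectifiers (Kcnj), tandem-pore leak channels (Kcnk), and channels opened by calcium, sodium or pH (Kcnma, Kcnn, Kcnt, Kcnu). Other Kcn genes encode auxiliary subunits (Kcnab, Kcne, Kcnip, Kcnmb). In neurons they shape firing, in skeletal muscle fibres they repolarise the membrane, and in sperm a pH-sensitive potassium current accompanies maturation of the cell for fertilisation.

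Between 24 and 34 member probes were detected per testis array, 66 to 75 per brain array and 21 to 28 per muscle array. Some libraries stood apart and touch the results. The library testis wild type 4 lacked most of the signal of epididymis genes that the other testis libraries carried. Lcn8, a lipocalin of the epididymis, had a log2 level of 7.20 there and 12.77 to 13.43 in the other 7 libraries, and the defensin gene Defb20 had 7.57 there and 12.68 to 13.15 elsewhere. Across the 4 epididymis markers on the array, out of 6 listed, all 4 were lowest in that library. Their summed linear level was 397 in it, while the mutant testis libraries spanned 14457 to 17194. On values normalized within the tissue, Sgms1 stood at 6.64 in the brain library labelled wild type 3 but at 8.33 and 8.07 in wild type 1 and wild type 2. Among libraries labelled mutant, brain mutant 2 stood at 8.14, while the other mutant brains ranged from 6.31 to 6.59, so that both go against their labels. In muscle the brown fat gene Ucp1 was at 7.27 and 7.72 in wild type 1 and wild type 3 and between 4.22 and 4.40 elsewhere. The slow fibre troponin Tnnt1 was at 10.12 and 10.81 in mutant 1 and mutant 2, and between 6.22 and 8.30 in the other 5 muscle libraries. Pituitary hormone genes were high in 2 brain libraries labelled wild type. Gh, the growth hormone gene, was at 13.67 in brain wild type 2 and 11.43 in brain wild type 3, and between 4.27 and 5.14 in the other 5. Prl, the prolactin gene, was at 13.02 and 10.37 there, and Pomc at 9.20 and 5.81. Of the defining markers of each labelled tissue, 9 of 10 germ cell markers were detected on every testis array, 6 of 8 neuron markers on every brain array, and 8 of 8 skeletal muscle markers on every muscle array. Sycp3 was detected in no testis library, and Snap25 and Nefl were detected in no brain library by the probes used.

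The upstream sequences of 3 members are shown because each had 1 start site in the RefSeq promoter table (GRCm38.p6) and each was high in a different tissue. Kcna7 was high in muscle, Kcna2 in brain and Kcnk5 in testis. The table held promoters of 62 of the 80 genes. The bases run 5′ to 3′ over the 250 positions before the annotated start, and capitals mark each match to CANNTG, the core motif of basic helix-loop-helix factors (both strands read the same letters). The Kcna7 window lies on the plus strand at chr7:45405710-45405959, that of Kcna2 on the plus strand at chr3:107101317-107101566, and that of Kcnk5 on the minus strand at chr14:20181783-20182032.
Kcna7: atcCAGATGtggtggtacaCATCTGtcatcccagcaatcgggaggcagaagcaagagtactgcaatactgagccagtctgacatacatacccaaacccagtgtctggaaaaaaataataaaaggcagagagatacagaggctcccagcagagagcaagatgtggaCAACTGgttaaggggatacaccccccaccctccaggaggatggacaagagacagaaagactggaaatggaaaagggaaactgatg
Kcna2: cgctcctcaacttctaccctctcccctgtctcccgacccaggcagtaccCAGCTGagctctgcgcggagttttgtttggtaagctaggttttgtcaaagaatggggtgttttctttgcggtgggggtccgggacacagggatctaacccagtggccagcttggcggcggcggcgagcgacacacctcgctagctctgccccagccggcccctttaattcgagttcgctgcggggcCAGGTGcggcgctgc
Kcnk5: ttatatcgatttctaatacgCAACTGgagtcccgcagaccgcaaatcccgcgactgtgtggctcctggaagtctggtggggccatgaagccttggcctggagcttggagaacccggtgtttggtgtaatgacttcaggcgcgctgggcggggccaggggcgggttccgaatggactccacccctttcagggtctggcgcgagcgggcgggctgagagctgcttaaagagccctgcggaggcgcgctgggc

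The Kcna7 window held 3 matches to CANNTG, that of Kcna2 held 2 and that of Kcnk5 held 1. Such a match was present in 66.2% of all 32841 promoter windows and in 66.7% of the 84 windows of Kcn genes, so its presence did not set these genes apart. CpG content differed more between the 3 windows. The Kcna7 window had 1 CpG and a G plus C content of 48.4%, the Kcna2 window 18 CpG and 62.4%, and the Kcnk5 window 19 CpG and 62.8%. At most 1 CpG was found in 18.8% of all windows and in 11.9% of the Kcn windows. Over all Kcn windows the median was 8 CpG, beside 6 over all promoters, and the 31 windows of genes detected in brain only had a median of 7. GGGCGG, the core of the GC box, read on both strands, was found in 46.4% of Kcn windows and 32.7% of all windows. The Kcnk5 window held 3 of them and the windows of Kcna7 and Kcna2 held 0.

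Potassium channel genes were detected mainly in brain. A probe counted as detected in a tissue when its detection p, the rank among the negative controls of the array, was under 0.05 on at least 3 arrays. In brain 71 of the 119 probes (59.7%) were detected, close to the 59.4% of all probes on the array. In testis 33 probes (27.7%) were detected beside 48.6% of all probes, and in muscle 22 (18.5%) beside 44.3%. These were 55 genes in brain, 27 in testis and 17 in muscle. In bulk tissue, fewer cells that express a gene and less RNA per cell cannot be told apart.

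Brain alone detected 26 of the 80 genes, brain and testis 14, brain and muscle 6, and 9 were detected in all 3 tissues. Kcna10, Kcne1 and Kcnn3 were detected in testis only, Kcna7 in muscle only, and Kcnq1 in testis and muscle but not in brain. For 20 genes no tissue reached the limit, among them Kcna4, Kcnd3 and Kcnj5. A gene below that limit is not shown to be unexpressed, since probes differ in how well they bind. On every brain array and on no other array lay Kcna1, Kcna2, Kcnab3, Kcnd2, Kcnh5, Kcnip1, Kcnj16, Kcnk12, Kcnk4, Kcnq5, Kcnt1 and Kcnv1. In muscle Kcna7 was the gene with this pattern, and in testis there was none (0 genes). Kcng4, Kcnk6 and Kcnmb4 were detected on all 22 arrays. The share of all genes with each pattern was not computed. Brain also detected most of all probes (59.4%, beside 48.6% in testis and 44.3% in muscle). These pattern counts alone therefore do not set the Kcn genes apart from other genes.

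The counts by subfamily are given as a description, since subfamilies are small, 17 of all 80 genes were detected in muscle, and no difference between subfamilies was tested. All 4 genes of the Kcnip family, calcium sensors that bind Kv4 channels, were detected in brain and 0 in muscle. The Kv4 genes themselves (Kcnd) were detected in brain for 2 of 3 and in neither other tissue. Of the 13 tandem-pore genes, 9 were detected in brain, 5 in testis and 1 in muscle, and the muscle gene was Kcnk6. Among the 12 inward rectifiers 8 were detected in brain, 3 in testis and 4 in muscle. Both Kcnc genes, which encode voltage-gated Kv3 channels, were detected in every tissue.

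At a detection p under 0.01 the number of member probes detected in testis was 17 instead of 33, so the testis counts depend on that limit.

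**Figure D1:**
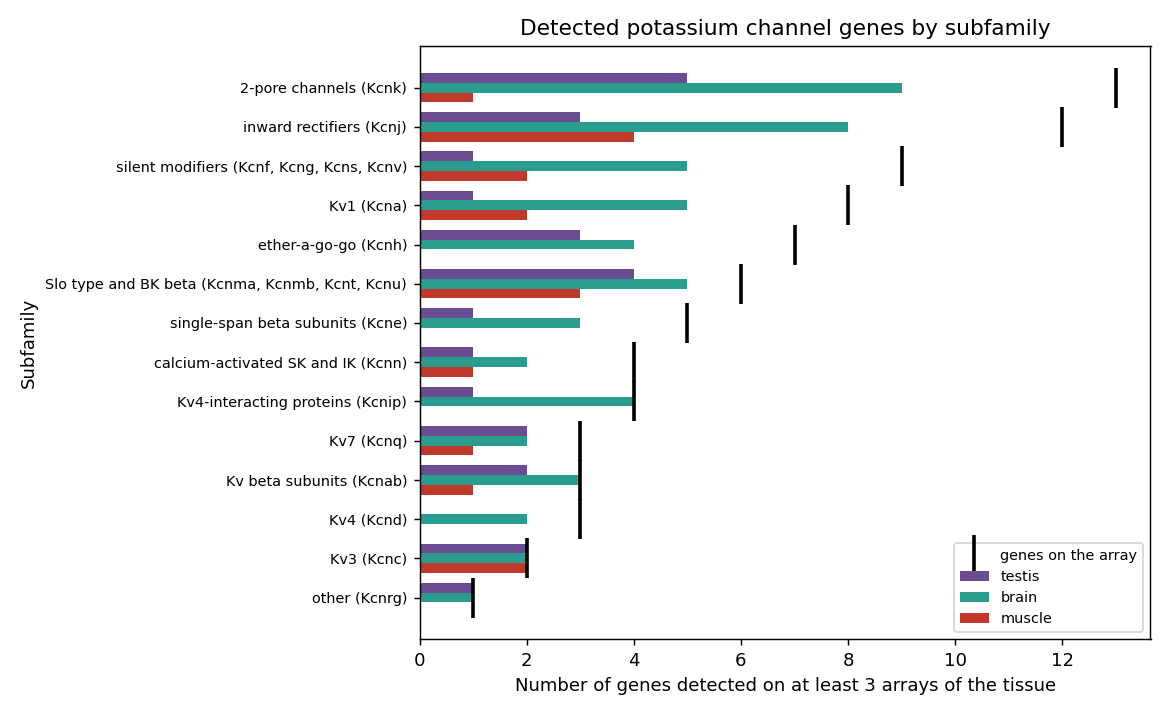
Number of Kcn genes per subfamily (vertical axis) detected on at least 3 arrays of testis, brain or muscle (coloured bars, horizontal axis), with a black mark at the number of genes of that subfamily on the array. Brain has the longest bar or shares it in every subfamily, and the Kcnip, Kcne, Kcnd, Kcnh and Kcnrg genes have no muscle bar.

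Levels were compared between tissues on all 22 arrays normalized together. After the detection filter, 78 member probes of 60 genes were among 17703 probes tested with limma, and a probe was called when its adjusted p was under 0.05 and its difference at least 1 on the log2 scale (2-fold). Each gene is given by its probe of highest mean, levels are log2 normalized intensities with the SD over the arrays of a tissue, and a tissue mean is the mean of its wild-type and mutant means. Levels of different probes are not compared with each other. Second probes often did not bear out a call: among the 14 genes with several probes tested, 13 had probes that differed in whether a tissue difference was called. Where only some arrays of a tissue detected a probe, the fold printed is the fitted one, the levels lie near background, and the number of arrays is given. Brain exceeded muscle for 32 member probes (41%), where 16.1% of all probes were called in that direction, and muscle exceeded brain for 9, where 16.3% were called. Brain exceeded testis for 31 member probes beside 25.4% of all probes, and testis exceeded brain for 4 (5.13%) beside 21.9%. Testis exceeded muscle for 11 beside 20.3%, and muscle exceeded testis for 14 beside 24.1%. The median difference of the members was 0.67 for brain minus muscle, -0.61 for testis minus brain and 0.04 for testis minus muscle, while over all probes it was -0.03, -0.14 and -0.07. The tissue comparisons share arrays, so these counts are not independent of each other. The filter kept probes detected in any 1 tissue. Among members, 71 passed it in brain, 33 in testis and 22 in muscle, beside 15264, 12487 and 11391 of all probes. The shares called are therefore not independent of the detection counts above. Median scaling in place of quantile normalization moved the median of all probes by 0.22 for brain minus muscle and by -0.48 for testis minus brain. Under it 34 member probes were higher in brain and 4 in muscle, and 77.2% of all calls between these tissues were higher in brain, beside 49.7% otherwise. Between testis and brain it left 2 member probes higher in testis and 39 higher in brain, and 23.4% of all calls were higher in testis, beside 46.3%. Between testis and muscle the members gave 8 and 12, and this share was 34.6% beside 45.7%. Without background correction, 16 member probes were higher in brain than in muscle and 3 lower.

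**Figure D2:**
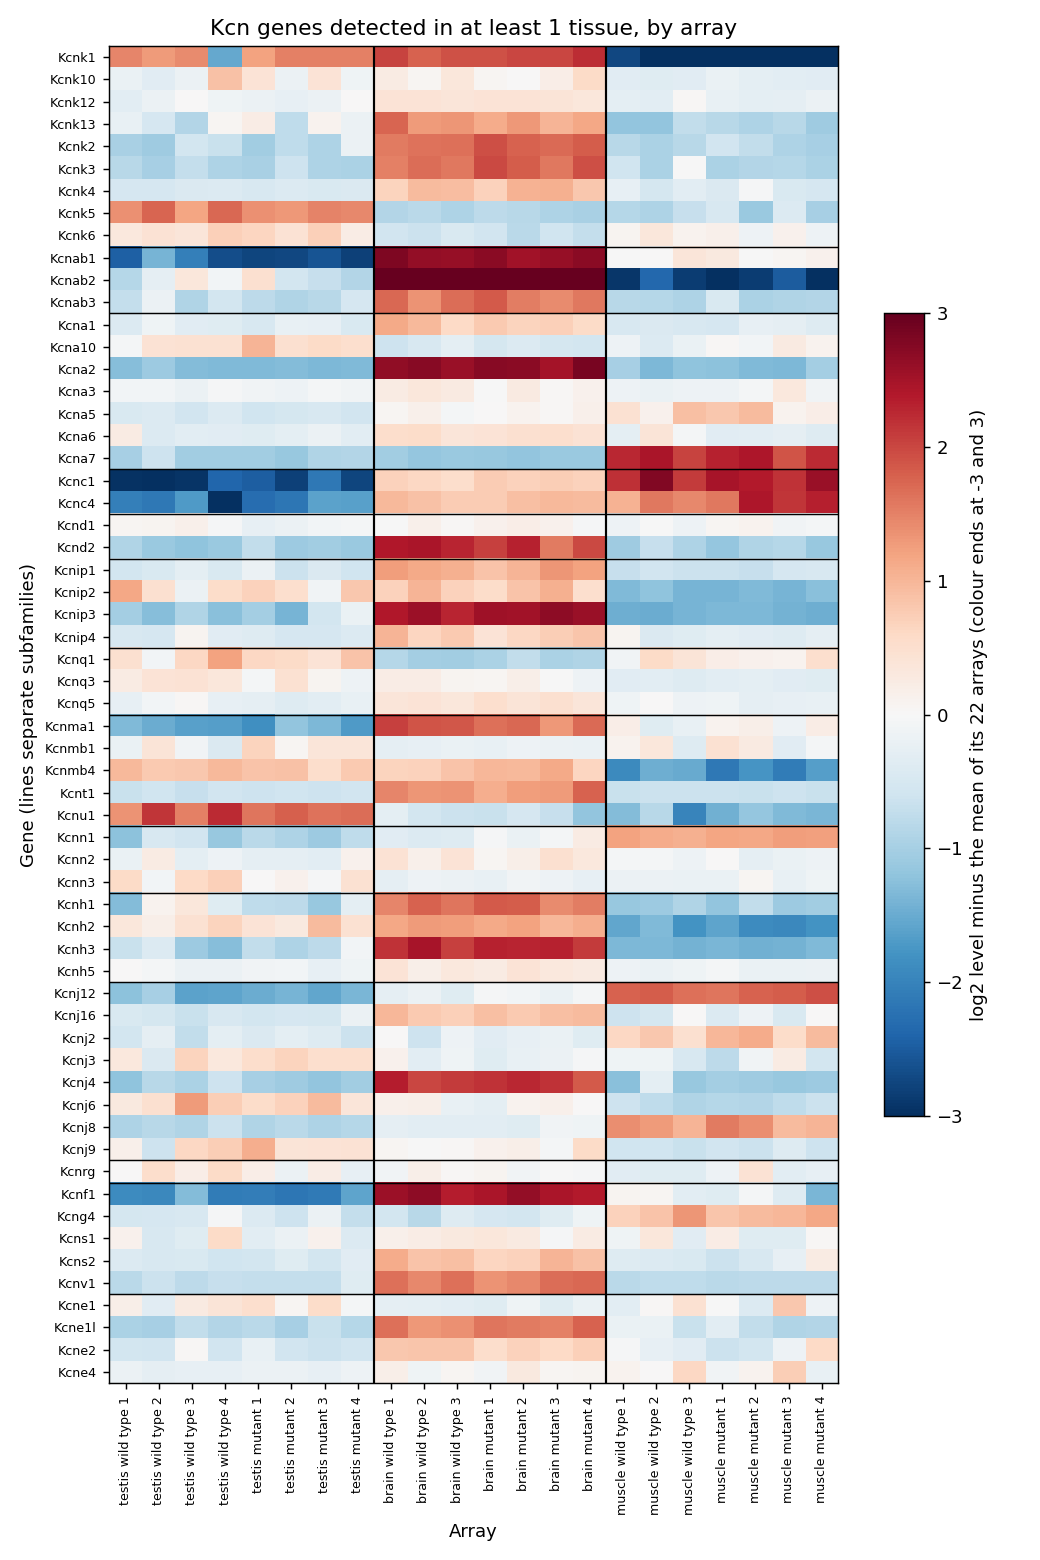
Level of the 60 Kcn genes detected in at least 1 tissue (rows, grouped by subfamily) on each of the 22 arrays (columns), as the log2 level minus the mean of that gene over all arrays, with red above and blue below that mean. The brain columns are red for most genes, muscle columns are red for Kcna7, Kcnj12, Kcnj8, Kcnc1 and Kcnn1, and testis wild type 4 is lower than its neighbours for Kcnk1 and Kcnc4.

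Among the pore-forming voltage-gated genes, Kcna2 marked brain. This gene encodes a Kv1 channel of axons. Its lowest, median and highest levels in brain were 8.06, 8.27 and 8.39. In muscle they were 4.20, 4.32 and 4.55, in testis 4.20, 4.25 and 4.48, with 0 detected arrays in either. The groups did not overlap, and the level in brain was at least 9.61-fold higher than in muscle and at least 10.4-fold higher than in testis (adjusted p of 2.94e-21 and 4.86e-22 in limma). Such a bound takes, for the tissue without detection, the weakest signal that still counted as detected on each array. Kcnd2, the A-type channel of dendrites, had 7.63 ± 0.31 (SD, n = 7) in brain and was at least 6.33-fold higher there than in muscle (adjusted p = 3.08e-17). Kcnh3, an ether-a-go-go channel of the forebrain, had 7.87 ± 0.14 (SD, n = 7) in brain and was at least 7.46-fold above muscle, where 0 arrays detected it. Testis held some Kcnh3 signal, with 5 of 8 arrays detected at a mean of 4.88. Of the other 10 genes on every brain array and no other array, Kcna1, Kcnab3, Kcnip1, Kcnj16, Kcnk4, Kcnt1 and Kcnv1 passed in both brain comparisons by their gene probes. Second probes of Kcnip1 and Kcnk4 were called in neither, with brain minus muscle at 0.13 (SE 0.08) and 0.037 (SE 0.08). Brain minus muscle ran from 1.17 for Kcnj16, a weak rectifier of glia, to 2.43 for Kcnab3 among these 7. Without background correction all 7 lost the call in both comparisons, with brain minus muscle from 0.35 for Kcnj16 to 0.88 for Kcnab3. At an offset of 50, Kcna1, Kcnip1, Kcnj16 and Kcnk4 lost it in both. Kcna1, a Kv1 channel of axons, passed against testis at -1.13 (testis minus brain), but stood at -0.98 without brain wild type 1. Kcnh5, Kcnk12 and Kcnq5 stayed under 2-fold, and their brain minus muscle differences did not exceed that of Kcnk12, at 0.605 (SE 0.07). All genes on every brain array and no other array, Kcna2 and Kcnd2 among them, were picked by detection on these same arrays. Their tests against muscle and testis therefore give no separate support.

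Kcnc1 and Kcnc4 ran the other way by their gene probes. Both encode Kv3 channels, which close fast and permit rapid firing. Kcnc1 had a lowest, median and highest level of 9.55, 9.82 and 10.22 in muscle, 7.96, 8.14 and 8.20 in brain, and 4.46, 4.66 and 5.30 in testis. These 3 ranges did not overlap, and 3 of 8 testis arrays detected the probe. The fitted difference of testis minus muscle was -5.06 (SE 0.12), 33.4-fold lower, and brain minus muscle was -1.71 (SE 0.13, adjusted p = 4.06e-11). A second Kcnc1 probe gave the opposite order of brain and muscle, 6.59 in brain and 5.28 in muscle, a difference of 1.30 (SE 0.13, adjusted p = 8.88e-09). This was the 1 member gene with opposite calls from its probes, and the order of brain and muscle for Kcnc1 depends on the probe. Kcnc4 had 11.10 ± 0.52 (SD, n = 7) in muscle and 10.24 ± 0.09 (SD, n = 7) in brain, a difference of -0.86 (SE 0.35) that stayed under 2-fold, while its second probe passed at -1.37 (SE 0.19). Testis was lower in Kcnc4, by -4.08 (SE 0.34) against muscle, and by -3.69 (SE 0.14) without testis wild type 4.

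Kcna7 was the member with the clearest muscle pattern. It encodes a Kv1 channel known from skeletal muscle and heart. Its lowest, median and highest levels were 7.27, 7.63 and 7.83 in muscle, and 0 of the 7 brain and 8 testis arrays detected it. The level was at least 8.76-fold higher in muscle than in brain and at least 6.74-fold higher than in testis (adjusted p of 9.22e-19 and 6.35e-19 in limma). All muscle arrays lay above all others, and the spread within muscle was small beside the gap. Detection on these same arrays had set Kcna7 apart, so its tests and the lack of overlap give no separate support.

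Of the 8 inward rectifier genes tested, 3 were higher in muscle than in brain and 2 lower, beside 16.3% and 16.1% of all probes. Kcnj12, one of the classical rectifiers that hold the resting potential of muscle fibres, had 7.39 to 7.73 in muscle with a median of 7.57, 5.43 to 5.75 in brain with a median of 5.62, and 4.18 to 4.79 in testis with 0 arrays detected. The order was muscle, brain, testis with no overlap, and muscle exceeded brain by 3.86-fold (adjusted p = 1.09e-14) and testis by at least 6.52-fold. Brain minus muscle for Kcnj12 was -0.98 without background correction, just under the 2-fold limit. Kcnj2, the other strong rectifier of muscle fibres, was 2.06-fold higher in muscle than in brain (log2 difference -1.04, SE 0.11, adjusted p = 1.89e-08), just over the 2-fold limit. With no background correction, 3 member probes were higher in muscle than in brain, those of Kcna7, Kcnc1 and Kcng4. Kcnj2 was thus not called in that setting. Kcnj8, the pore of the ATP-sensitive channel of vessels, had 6.32 ± 0.23 (SD, n = 7) in muscle, 4.82 ± 0.10 in brain and 4.23 ± 0.09 (SD, n = 8) in testis. Its muscle level was 2.82-fold above brain. Brain minus muscle for Kcnj8 stayed under 2-fold without background correction (-0.52), at an offset of 50 (-0.87) and with median scaling (-0.94). The sulfonylurea receptor gene Abcc9, whose protein assembles with that pore, was also highest in muscle, at 9.39, with 4.82 in brain and 5.62 in testis (brain minus muscle -4.56, adjusted p = 9.57e-20). Brain and testis stood in the opposite order for the 2 genes. Kcnj4, a strong rectifier of forebrain neurons, and Kcnj16 were the 2 that were higher in brain. Kcnj4 was a fitted 8.62-fold higher there than in muscle, where 1 of 7 arrays detected it.

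Kcnn1, a small-conductance channel opened by calcium, had 6.74 ± 0.07 (SD, n = 7) in muscle and 5.38 ± 0.24 in brain, 2.57-fold lower (adjusted p = 1.59e-10). It lost the call without background correction (brain minus muscle -0.56), at an offset of 50 (-0.89) and with median scaling (-0.54). Kcng4 encodes a silent subunit that modifies other Kv channels. It was detected on all arrays, with 8.92 ± 0.22 (SD, n = 7) in muscle, 7.46 ± 0.21 in brain and 7.51 ± 0.23 (SD, n = 8) in testis. Muscle was 2.75-fold above brain and 2.65-fold above testis, and testis minus brain was 0.052 (SE 0.12), which turned to -1.51 with median scaling. Under that scaling brain minus muscle for Kcng4 was -0.65, which is under 2-fold. A second Kcng4 probe gave -0.51 for brain minus muscle and did not pass.

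Of the auxiliary subunits, all 3 Kcnab genes were called higher in brain than in muscle and in testis by their gene probes. Over all probes 16.1% and 25.4% were called in these directions. Kcnab2 encodes a Kv beta subunit that binds Kv1 channels and resembles an oxidoreductase. Its lowest, median and highest levels were 10.56, 10.74 and 10.87 in brain, 6.69, 7.16 and 8.04 in testis, and 4.51, 4.70 and 5.21 in muscle, where 2 of 7 arrays detected it. Brain exceeded muscle by a fitted 60.9-fold (log2 difference 5.93, SE 0.19, adjusted p = 1.05e-17) and testis by 11.0-fold. Its relative Kcnab1 followed another order, with 9.71 ± 0.09 (SD, n = 7) in brain, 7.17 ± 0.15 in muscle and 4.63 ± 0.48 (SD, n = 8) in testis. Testis lay a fitted 34.0-fold below brain for Kcnab1 and 5.84-fold below muscle, and 2 of 8 testis arrays detected it. A second probe, detected on 5 of 8, gave the same order and calls. The remaining Kcnab1 probe was called in no comparison, with brain minus muscle at 0.70 (SE 0.11), testis minus brain at -0.51 (SE 0.11) and testis minus muscle at 0.19 (SE 0.11), the last of opposite sign. For Kcnab2, which had 1 probe tested, testis exceeded muscle (difference 2.47, SE 0.18, adjusted p = 2.45e-11). Kcnab3 was 6.74 ± 0.17 (SD, n = 7) in brain and was detected on no other array.

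Kcnip3, a calcium sensor that also acts as a repressor of transcription, had 8.16 ± 0.13 (SD, n = 7) in brain, at least 9.15-fold above muscle and a fitted 10.9-fold above testis, where 2 of 8 arrays detected it. Over all probes 16.1% were called higher in brain than in muscle and 25.4% higher than in testis. Of the 4 Kcnip genes tested, 4 were called higher in brain than in muscle and 3 higher than in testis. The exception was Kcnip2, at 6.15 in testis and 6.43 in brain by its gene probe. Its 2 other probes were detected on every brain array and on 0 testis arrays, so its testis signal rests on 1 probe. Kcnmb4, the neuronal beta subunit of the large-conductance calcium-activated channel, was 6.10-fold higher in brain than in muscle. In testis its 3 probes disagreed: testis minus brain was -0.012 (SE 0.10), 0.54 (SE 0.10) and -1.13 (SE 0.12), of which the last passed. The first turned sign in 8 of 36 alternatives and passed at -1.56 with median scaling. Kcnma1, the pore gene of that channel, had 7.95 ± 0.24 (SD, n = 7) in brain, 6.17 ± 0.23 in muscle and 4.67 ± 0.22 (SD, n = 8) in testis. In testis 3 of 8 arrays detected the Kcnma1 probe. Kcnf1, a silent Kv modifier, was a fitted 21.1-fold higher in brain than in testis, where 2 of 8 arrays detected it, and 6.97-fold higher than in muscle, where 6 of 7 did.

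Few members were highest in testis. Kcnu1, the pH-sensitive potassium channel of sperm, had a lowest, median and highest level of 7.88, 8.18 and 8.75 in testis, 5.35, 5.88 and 6.23 in brain, and 4.54, 5.20 and 5.70 in muscle. All testis arrays lay above all others. Testis exceeded brain by 5.17-fold (adjusted p = 3.48e-12) and muscle by 8.52-fold (adjusted p = 3.07e-14). With median scaling the difference from brain was 0.87, under the 2-fold limit. The probe was detected on 7 of 7 brain and 6 of 7 muscle arrays. Lrrc52, which encodes the partner subunit of this channel, was detected on 8 of 8 testis arrays at a mean of 8.78, on 0 brain arrays and on 1 muscle array. A list of other sperm ion channel genes, which holds the CatSper calcium channel genes and Lrrc52, had 9 genes tested. Of these, 8 were higher in testis than in brain and 8 than in muscle, with median log2 differences of 4.68 and 4.74. Over all probes 21.9% and 20.3% were called in these directions, with medians of -0.14 and -0.07. The list was made of genes known from sperm, and Lrrc52 is counted in it again. Its counts therefore give no separate support for the Kcnu1 pattern.

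Kcnk5, an alkali-activated leak channel, had 6.54 to 7.11 in testis with a median of 6.77, 4.39 to 4.58 in brain, and 4.24 to 4.96 in muscle. It was a fitted 5.02-fold higher in testis than in brain, where 4 of 7 arrays detected it, and 4.72-fold higher than in muscle, where 1 of 7 did. A second probe differed by 0.61 and 0.56 and did not reach 2-fold. Kcnk6, another leak channel gene, had 6.62 ± 0.19 (SD, n = 8) in testis, 5.52 ± 0.11 (SD, n = 7) in brain and 6.22 ± 0.18 in muscle. The testis excess of 1.10 (SE 0.09) over brain passed, but it was -0.19 with median scaling, so its direction depends on the scaling. A second Kcnk6 probe gave 0.035 (SE 0.14) for testis minus brain and did not pass. Kcnq1, a slow delayed rectifier of epithelia and heart, was 5.80 ± 0.37 (SD, n = 8) in testis and 5.48 ± 0.24 (SD, n = 7) in muscle, at least 2.50-fold and at least 2.00-fold above brain, where 0 arrays detected it. Kcnh2, the gene of the cardiac rapid delayed rectifier, was 6.81 in testis, 7.51 in brain and 4.66 in muscle, so that muscle, with 1 of 7 arrays detected, stood low (testis minus muscle 2.15, SE 0.10, adjusted p = 7.41e-15). Of its 2 other probes, 1 passed at 1.31 (SE 0.16) and the other did not, at 0.385 (SE 0.14). Without background correction Kcnk5 stood at 0.85 over brain and 0.83 over muscle, Kcnq1 at 0.47 over brain and Kcnh2 at 0.80 over muscle. Each of these lost the call, and Kcnq1 also did at an offset of 50 (0.75).

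**Figure D3:**
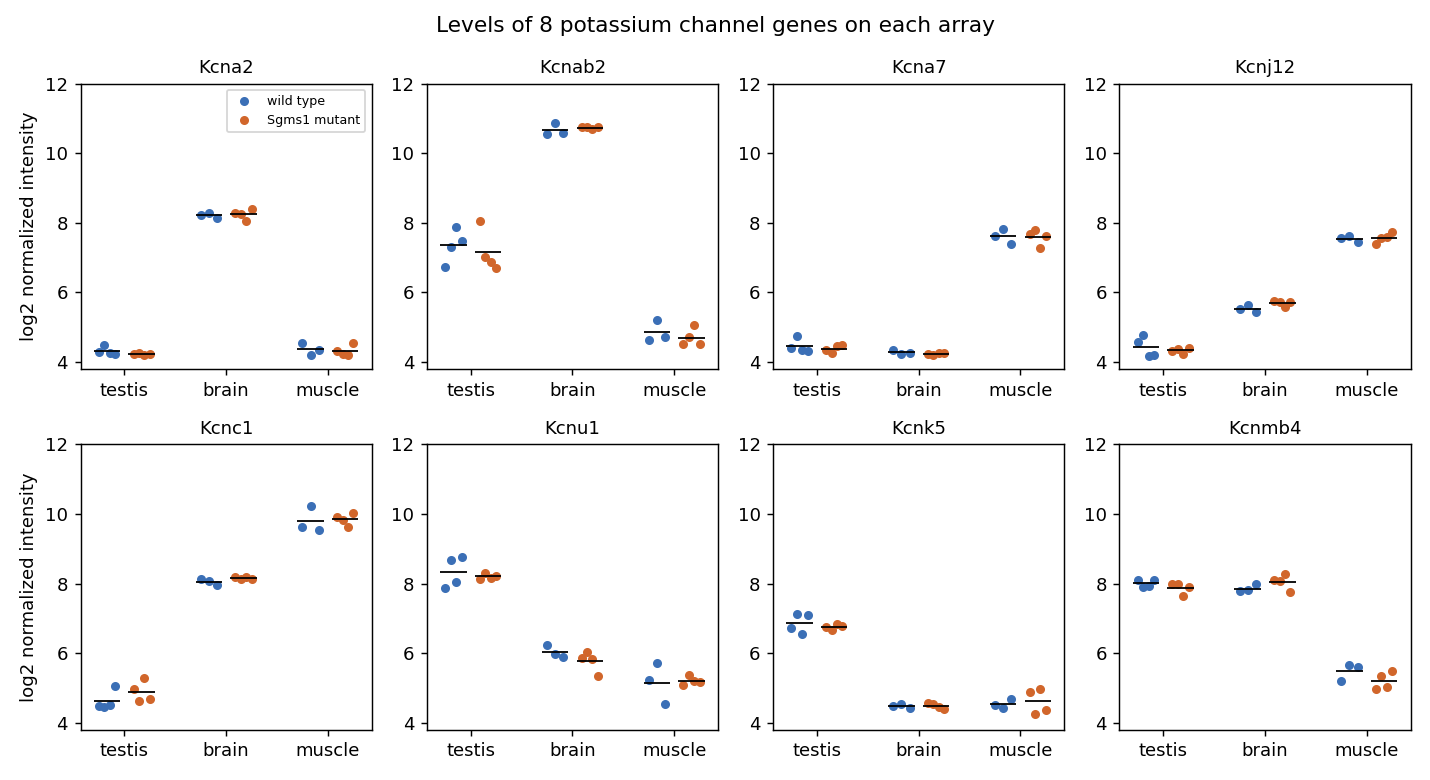
Log2 normalized intensity (vertical axis) of 8 Kcn genes in testis, brain and muscle, with 1 point per array, blue for wild type and orange for Sgms1 mutant, and a black line at each group mean. Kcna2 and Kcnab2 are high in brain, Kcna7, Kcnj12 and Kcnc1 in muscle, Kcnu1 and Kcnk5 in testis, and the colours overlap in every tissue.

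Kcnk1 and Kcnc4 levels in testis depended on 1 library. Kcnk1 encodes a tandem-pore channel of weak inward rectification. Its testis levels were 9.22, 9.04, 9.19 and 6.24 in wild type 1 to 4, and 8.98, 9.28, 9.27 and 9.28 in mutant 1 to 4. Those of Kcnc4 were 7.31, 7.21, 7.65 and 4.24 in wild type, and 7.06, 7.18, 7.76 and 7.73 in mutants. In both genes the library testis wild type 4 lay well below the lowest other library, by -2.75 for Kcnk1 and -2.82 for Kcnc4, and in Kcnc4 it was the 1 testis array that did not detect the probe. No other member probe of the 33 detected in testis lay more than 1 below the others there, and 3 lay more than 0.3 above all others (Kcnk10, Kcnq1 and a second Kcnh2 probe). This is the library with the low epididymis markers described above, and the part of epididymal tissue in these 2 results was not tested. Testis minus muscle for Kcnk1 was 4.21 (SE 0.30, adjusted p = 2.01e-11), and 4.60 (SE 0.10) without that library. In testis wild type 4 Kcnk1 was at 6.24, and the highest muscle array was at 5.03. That library also held some epididymis signal (Lcn8 at 7.20, Defb20 at 7.57), and its part in this Kcnk1 level was not tested.

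**Figure D4:**
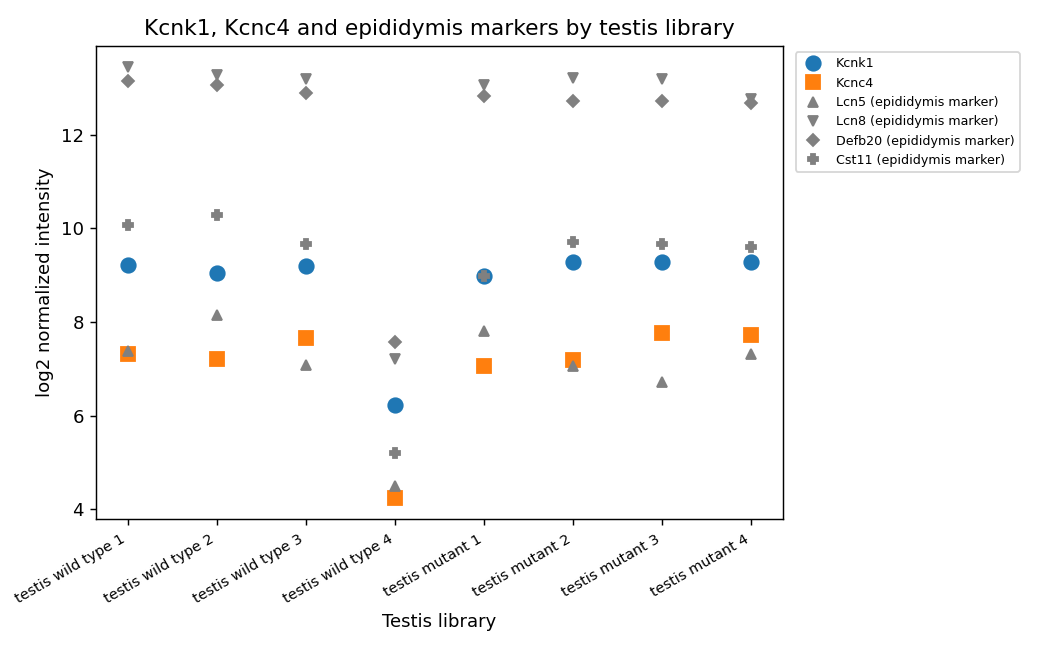
Log2 normalized intensity (vertical axis) of Kcnk1, Kcnc4 and the 4 epididymis markers on the array in each of the 8 testis libraries (horizontal axis). All 6 genes are lowest in testis wild type 4, where Kcnk1 is at 6.24 and Kcnc4 at 4.24.

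The genes that work beside potassium channels were also compared, from lists chosen with earlier results known. Over all probes 16.1% were called higher in brain than in muscle and 16.3% lower, with a median difference of -0.03. The counts and medians of each list here stand beside these. Of 18 partner genes tested, 7 were higher in brain than in muscle and 3 lower, with a median difference of 0.46. The Kv4 partners Dpp6 and Dpp10 were at 9.55 and 8.83 in brain and at 4.43 and 4.25 in muscle, with 0 muscle arrays detected. In testis Dpp10 was detected on 0 arrays, as was Kcnd2, while Dpp6 was detected on 8 of 8 at 6.39. Of 12 genes of the sodium-potassium pump and potassium cotransport, 6 were higher in brain than in muscle and 2 lower, with a median of 0.57. The pump subunit Atp1b1 had 13.42 in brain, 10.17 in muscle and 8.54 in testis, and Atp1b4, a muscle protein related to pump beta subunits, had 6.63 in muscle and was detected on 0 arrays of the other tissues. Of 6 sodium channel genes 4 were higher in brain than in muscle and 1 lower, with a median of 1.91, and of 21 calcium channel genes 12 were higher and 3 lower, with a median of 1.43. Among 6 pacemaker and cyclic nucleotide-gated channel genes 3 were higher and 0 lower, with a median of 0.74. Hcn2, a pacemaker channel related to the Kv family, had 9.73 in brain and 5.16 in muscle.

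Mutant and wild-type mice were then compared within each tissue, on values normalized within the tissue, which differ from the levels above. No member passed the test in any tissue. In testis 0 of 33 member probes passed at an adjusted p under 0.05 in limma, and 0 had an unadjusted p under 0.05. In brain 0 of 71 passed and 6 had an unadjusted p under 0.05, and in muscle 0 of 22 passed and 2 had an unadjusted p under 0.05. Over all probes 0%, 0% and 0.105% passed in testis, brain and muscle, and 5.53%, 3.85% and 9.18% had an unadjusted p under 0.05. The median absolute difference of the member probes was 0.11 in testis, 0.09 in brain and 0.06 in muscle, beside 0.12, 0.08 and 0.11 over all probes. The lowest and highest member differences were -0.21 and 0.74 for testis, -0.38 and 0.49 for brain, and -0.43 and 0.85 for muscle. Genotype groups did not overlap for 1 member probe in testis, 5 in brain and 1 in muscle, beside 3.42%, 4.44% and 8.88% of all probes. These were Kcna10 in testis, Kcne2, Kcnk2, Kcnma1, Kcnn1 and a second Kcnh2 probe in brain, and Kcnc4 in muscle.

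The largest genotype difference among the members was that of Kcnc4 in muscle. Its levels were 10.25, 10.87 and 10.72 in wild type 1 to 3, and 10.87, 11.80, 11.48 and 11.71 in mutant 1 to 4. Mutant 1 lay just above the highest wild type and the other 3 mutants farther above, with no overlap. The difference was 0.85 (SE 0.22), with an adjusted p of 0.226 in limma and an exact permutation p of 0.0571, two-sided, where the design allows no less than 0.0286. A second Kcnc4 probe gave 0.82 (SE 0.28, adjusted p = 0.377). Without wild type 1 and wild type 3, which carried Ucp1, the difference was 0.61 and rests on 1 wild-type library, and without mutant 1 and mutant 2, which carried most slow fibre signal, it was 0.98. Over the 21 alternatives its adjusted p ran from 0.0753 to 0.998. The 7 slow fibre markers summed to between 1480 and 3310 in wild-type and between 1338 and 11814 in mutant muscle, and Myh7 and Tnni1 were detected in no wild-type library. The 3 brown fat markers on the array summed to between 120 and 726 in wild type and between 66.8 and 128 in mutants, with Elovl3 undetected in all 7 muscle libraries and Ucp1 in the mutants. Adipocyte markers, of which 5 of 6 were on the array, separated the genotypes in muscle, with sums of 2158 to 4374 in wild type and 573 to 1410 in mutants and Retn undetected in all libraries. Lep, the leptin gene, ranged from 8.37 to 9.23 in wild type and from 6.06 to 6.76 in mutants on the scale of all 22 arrays. The part of adipocytes, brown fat and slow fibres in the Kcnc4 difference was not tested beyond these values. In brain Kcnc4 differed by 0.03 (SE 0.10), and in testis by 0.54 (SE 0.39), or by 0.048 (SE 0.19) without testis wild type 4.

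In brain the member of smallest p was Kcnn1. Its levels were 5.92, 5.83 and 5.88 in libraries labelled wild type and 6.35, 6.14, 6.33 and 6.68 in those labelled mutant, with no overlap. The difference of 0.49 (SE 0.13) did not pass, with an unadjusted p of 0.00246 and an adjusted p of 1.0 in limma. Without both libraries whose Sgms1 level goes against the label it was 0.57 (SE 0.15, adjusted p = 0.660, the lowest over its alternatives, which reached 1.0). Without both libraries with pituitary signal, an alternative chosen after seeing the data that leaves 1 library labelled wild type, it was 0.45 (SE 0.21). Muscle of the same mice gave 0.08 (SE 0.10) for Kcnn1. Kcnma1 differed by -0.33 (SE 0.12), Kcna3, a Kv1 channel of lymphocytes and microglia, by -0.34 (SE 0.13) and Kcnd2 by -0.38 (SE 0.15), none of which passed. Without both doubted brain libraries these values were -0.40, -0.46 and -0.53, and without the pituitary libraries -0.44, -0.28 and -0.41.

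In testis the members of smallest p were Kcnmb1, the beta subunit of smooth muscle, at 0.20 (SE 0.13), Kcnk1 at 0.74 (SE 0.49), Kcnc4 and Kcna10 at 0.17 (SE 0.12), with adjusted p from 0.837 to 0.868. Kcnmb1 was detected on 0 of 4 wild-type and 3 of 4 mutant testis arrays. It passed the detection filter only through the mutants, where it was higher, so its difference gives no support. The Kcna10 groups did not overlap, with 4.46, 4.69, 4.70 and 4.71 in wild type and 5.02, 4.71, 4.76 and 4.73 in mutants. The Kcnk1 value was 0.054 (SE 0.13) without testis wild type 4. For muscle, Kcnf1 differed by -0.43 (SE 0.23), Kcnj2 by 0.24 (SE 0.14) and Kcnmb4 by -0.19 (SE 0.12), and none passed. The Kcnf1 level was 4.72 in muscle mutant 4 and 5.47 to 5.81 in the other mutants. Without that library the Kcnf1 difference was -0.22. No gene of the partner, pump, sodium, calcium or sperm channel lists passed the genotype test in any tissue.

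**Figure D5:**
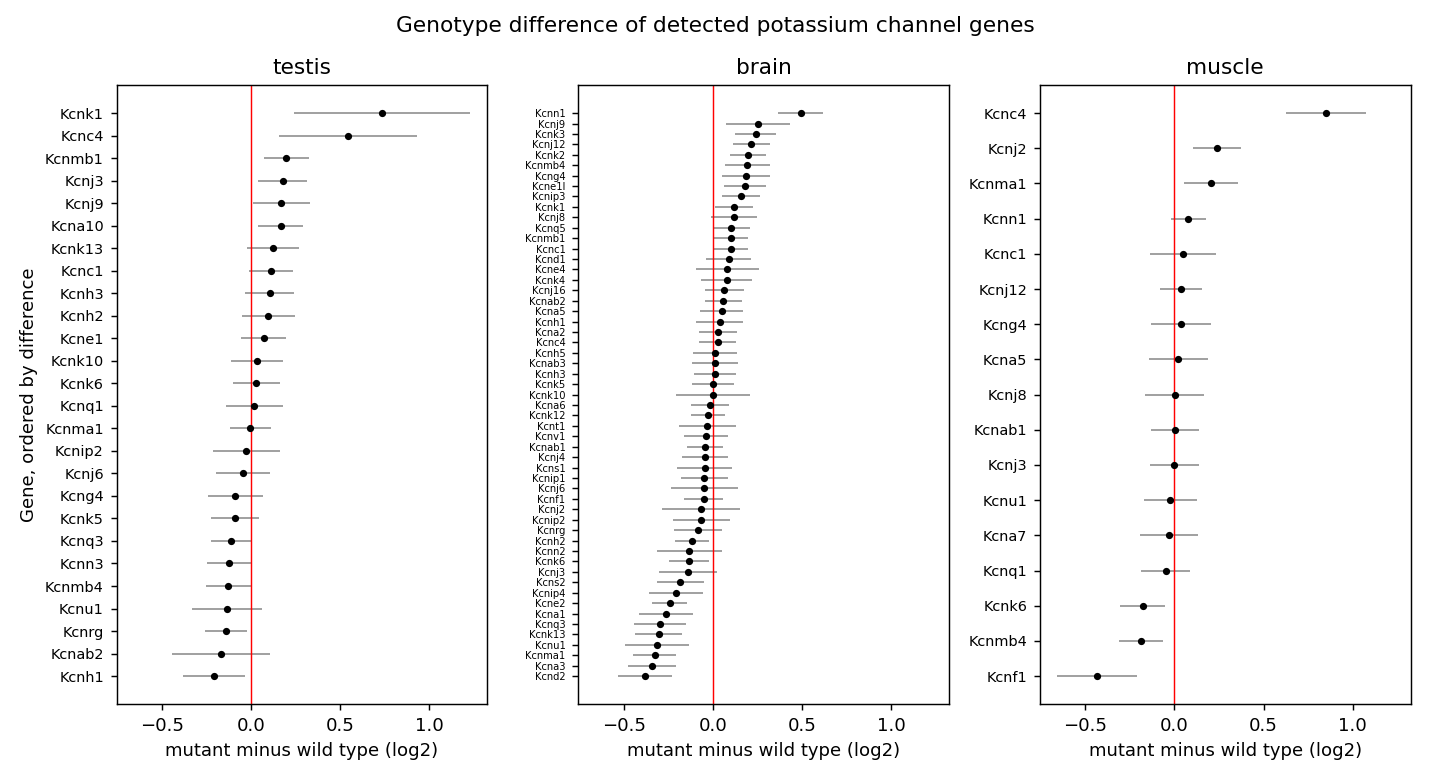
Mutant minus wild type on the log2 scale (horizontal axis) with its standard error for the gene probe of each detected Kcn gene, ordered by the difference within testis, brain and muscle. Most values lie within 0.5 of 0 (the red line), the outermost points are Kcnk1 and Kcnc4 in testis, Kcnn1 and Kcnd2 in brain and Kcnc4 and Kcnf1 in muscle, and none passed the test.

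Genotype differences were compared between tissues as an interaction over all 22 arrays. No member passed for brain against muscle (0 of 78), testis against brain (0) or testis against muscle (0) in limma, beside 0.0113%, 0% and 0.311% of all probes. At an unadjusted p under 0.05 there were 5, 2 and 5 member probes, beside 3.56%, 5.02% and 9.81% of all probes. The smallest p among genes was that of Kcnk3, an acid-sensitive leak channel, for brain minus muscle, where the effects differed by 0.63 (SE 0.22, adjusted p = 0.793). For testis minus brain it was that of Kcnd2, at 0.49 (SE 0.20, adjusted p = 0.910). Kcnrg, a regulator of Kv channel assembly, had the smallest p for testis minus muscle, at -0.61 (SE 0.23, adjusted p = 0.326). By the detection limit above, Kcnk3 and Kcnd2 were detected in brain only, and Kcnrg in testis and brain but not in muscle. Each of these differences therefore sets a detected tissue against values near background.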

How the data were processed

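The authors deposited non-normalized intensity values, each with a detection p-value, per the file headers, and also processed intensity values whose background and scaling steps are unknown here. The submitters' processing notes name GenomeStudio 2011.1. Background correction and quantile normalization used neqc (limma 3.58.1, R 4.3.3, offset 16) and gave log2 levels, within each tissue for genotype and over all 22 arrays for tissue and interaction. Probes detected at p under 0.05 on at least 3 arrays of a tissue were fitted with lmFit and eBayes, and all adjusted p-values come from limma with Benjamini-Hochberg adjustment at 5% over all probes fitted. Replicates are separate mice. Brain and muscle arrays of the same mouse pair by the identifiers in the labels, and their deviations correlated at 0.01 to 0.11. Wild-type and mutant mice share only a number (correlations -0.01 to 0.16). The number of arrays limits the precision.

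The members, gene lists and tests were chosen with earlier results of these data known. The genes named are those with the 6 largest differences per direction and tissue pair, those detected on every array of 1 tissue and no other, those detected on all 22 arrays, the 4 of smallest p per tissue for genotype and the 1 of smallest p per interaction. Other genes named were chosen after their values were seen. Tested on simulated data, the genotype fit recovered 84%, 89% and 88% of probes changed by 1 on the log2 scale in testis (12487 probes), brain (15264) and muscle (11391). There, 100 probes were changed by 1 and 100 by 2, and 184, 200 and 191 were called. In the measured data 0, 0 and 12 probes passed. A single changed member thus faced a stricter limit after adjustment, and the recovered shares do not apply to it.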

Additional observations from a re-analysis of the deposited data

Results flagged for a closer look

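Among 82 groups of 4 arrays of a named gene, 7 had an array that lay apart from the other 3 by Dixon's test, which chance flags in about 1 of 20 groups. In testis wild type 4, the log2 level was 6.24 for Kcnk1, 4.24 for Kcnc4, 5.07 for Kcnc1 and 7.91 for Kcng4. The other wild-type testis libraries lay at 9.04 to 9.22, 7.21 to 7.65, 4.46 to 4.50 and 7.41 to 7.46. This library also had the low epididymis markers, whose part was not tested. Kcna10 was at 4.83 in testis wild type 1 and at 5.32 to 5.36 in the other 3. Kcnk1 was at 8.98 in testis mutant 1 and at 9.27 to 9.28 in the other 3 mutants. Kcnh3 was at 7.73 in brain mutant 4 and at 7.92 to 7.93 in the others with that label.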

How the results depend on the processing

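The count of members called for genotype stayed at 0 in all 62 recomputations, and that for the interaction at 0 in all 16. With the replicate number as a block it was 0 in each tissue, and with the mouse as replicate block 32 member probes were higher in brain and 9 in muscle. The block changed no other call. Tissue counts moved by over 1.5 times under 3 settings, and the cause was not tested. Without background correction, brain and muscle gave 16 and 3, brain and testis 12 and 1, muscle and testis 7 and 5. An offset of 50 gave 5 higher in muscle than brain and 2 higher in testis than brain, and median scaling 4 and 2. With the authors' processed values, 42 member probes were higher in brain and 9 in muscle. At a detection p under 0.01, 17 member probes were detected in testis instead of 33. For the 61 named tissue differences, 40 of 2218 recomputed values lost the call, 5 gained it and 15 turned sign. With median scaling Kcnk6 turned to 0.18 (brain minus muscle), -0.19 (testis minus brain) and -0.0040 (testis minus muscle), and Kcng4 to -1.51 (testis minus brain). For testis minus brain, Kcng4 was -0.092 in mutant arrays only, and Kcnmb4 was 0.15 in wild-type arrays only and 0.025 without both doubted brain libraries. Without both brain libraries with pituitary signal, an alternative chosen after seeing the data, Kcnmb4 was 0.028. Leaving out 1 library gave -0.0073 to 0.105 for Kcng4 and -0.062 to 0.028 for Kcnmb4, both turning sign around 0. Named genotype and interaction differences kept direction and call in all 242 and 16 recomputed values. None of them was called to begin with, so this does not show that their sizes were stable. Kcnk1 in testis, for example, went from 0.74 to 0.054 without testis wild type 4. Members near background are limited by signal over background.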
